A study of Zea mays with 6 samples.

Results

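The 100 genes with the highest FPKM in wild-type coleoptile tips were taken from the 23139 maize genes that Cuffdiff listed with the status OK. FPKM is a fragment count scaled for transcript length and library size, so levels can be set side by side between genes of different length. The 100 genes were chosen by the wild-type FPKM alone and made up 0.432% of the genes of status OK. Because that value is also the denominator of every ratio given here, the levels, ranks and ratios of these genes are a description and carry no test.

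RNA was sequenced from tips of 3 to 4 mm of seedlings of the W22 background grown at 28°C, in 3 samples labelled fdl1 and 3 samples labelled wild type. By the methods of the study, tips were collected 3 days after germination and each replicate pooled 5 of them. The mutant carries fdl1-Mu, a transposon insertion in the second exon of FDL1, which encodes the MYB transcription factor ZmMYB94. The methods name homozygous and heterozygous fdl1-Mu plants, and by the labels the fdl1 samples included tips of normal appearance. The deposited table holds 1 FPKM value for each gene and group, pooled over the 3 replicates, so that no spread between replicates stands beside any value and the number of reads behind it is unknown. In bulk tissue, fewer cells of a type and less RNA per cell cannot be told apart.

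The coleoptile is the sheath that protects the shoot of a germinating grass and grows mostly by cell elongation. Its most abundant transcripts are typically those of the general machinery of growing cells, such as ribosomal proteins, histones, tubulins and glycolytic enzymes, together with small secreted proteins and defence enzymes. Young maize seedlings also store benzoxazinoids, indole-derived defence compounds kept as glucosides until a beta-glucosidase releases the toxic form.

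FDL1 itself (GRMZM2G056407, chromosome 7 of B73v3, 167647343 to 167649332) had 12.7 FPKM in fdl1-labelled tips and 4.58 FPKM in wild-type tips, a log2 ratio of 1.48. The gene that carries the insertion was thus higher in the group labelled fdl1, and 1 value per gene cannot separate transcripts with the insertion from those without it. Every direction below therefore rests on the labels. Summed over the genes of status OK, the FPKM came to 682520 in fdl1-labelled tips and 662398 in wild-type tips, and the median log2 ratio of the 23116 such genes above 0 in both groups was 0.02. Of 26 marker symbols for tissues that a tip could hold, 16 matched a single identifier. The 4 leaf mesophyll and bundle sheath markers summed to 25.3 FPKM in fdl1-labelled and 30.1 FPKM in wild-type tips, with ppdk1 (7.43 and 16.2 FPKM in that order) and me3 lower and ssu1 and mdh6 higher in fdl1-labelled tips. A wider list of 12 photosynthesis genes, which includes ppdk1, me3 and ssu1, mostly differed from that sum in direction. By at least 1.5-fold, 8 of them were higher and 1 was lower in fdl1-labelled tips, beside 13.0% and 6.40% of all genes. The 3 epidermis markers summed to 35.8 FPKM in fdl1-labelled and 41.3 FPKM in wild-type tips, and the 3 meristem and young leaf markers to 101.2 and 81.8 FPKM in the same order. The 6 storage markers of endosperm and embryo summed to 5.73 FPKM in fdl1-labelled and 5.54 FPKM in wild-type tips, with fl2 and o2 at 0 in both. None of these markers defines the coleoptile itself, so the labelled organ was not checked beyond the low level of seed storage transcripts, and the part of these tissues in the ratios below was not tested.

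Together the 100 genes held 14.8% of the summed FPKM in fdl1-labelled tips and 14.7% in wild-type tips. Their summed level was 101010 FPKM in fdl1-labelled tips against 97490 FPKM in wild-type tips, a difference of 3.61%. The share was therefore nearly the same in both groups while single genes differed, as described below. Single members spanned 316.6 to 3218 FPKM in fdl1-labelled tips, with a median of 831 FPKM. In wild-type tips the same genes spanned 620.3 to 3135 FPKM, with a median of 854 FPKM. By comparison, the median gene of status OK had 9.76 FPKM in fdl1-labelled and 9.50 FPKM in wild-type tips. Levels over 1000 FPKM were listed for 34 members in fdl1-labelled tips and for 31 in wild-type tips.

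Among genes of status OK, no single transcript held a large share. When these genes were ranked in each group by their own FPKM, the top gene held 0.472% of the summed FPKM in fdl1-labelled and 0.473% in wild-type tips. The first 10 genes held 3.38% in fdl1-labelled and 2.94% in wild-type tips, and the first 50 held 9.99% and 9.36% in the same order. The 100 highest genes of status OK held 15.2% in fdl1-labelled and 14.7% in wild-type tips. The first 50% of the sum was held by 1210 genes of fdl1-labelled tips and 1218 genes of wild-type tips. The order at the top turns round once glu1, a gene without the status OK described below, is counted at its listed values. The first 10 genes then held 3.38% in fdl1-labelled and 3.55% in wild-type tips, and the first 100 held 15.2% and 15.3% in the same order. This reversal rests on the listed 0 of glu1 in fdl1-labelled tips, which is not a measured absence, and nothing was read from it.

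**Figure D1:**
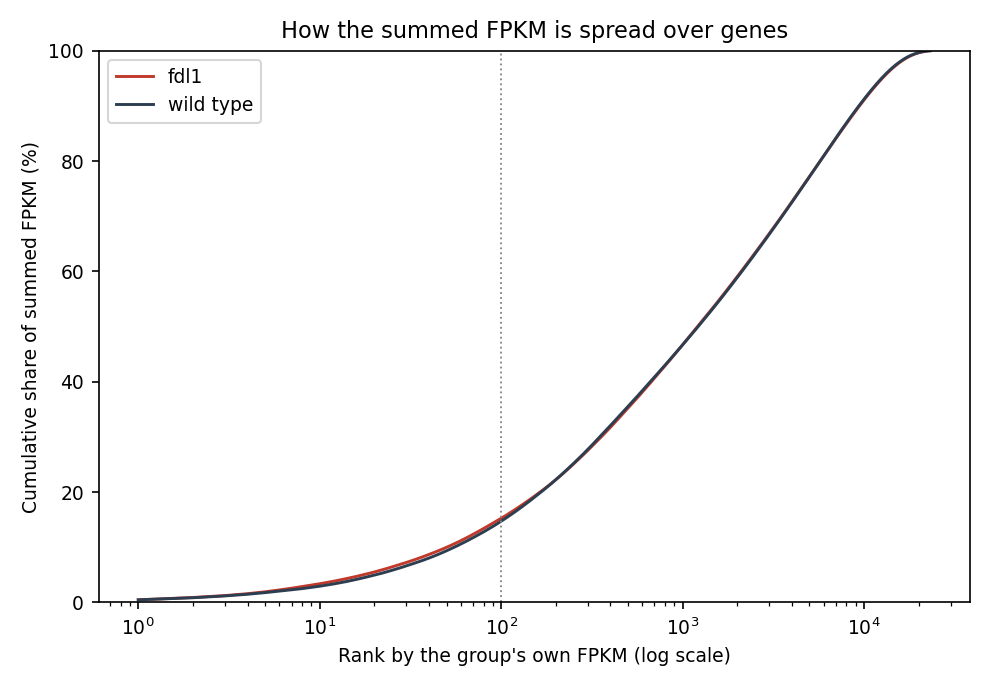
Cumulative share of the summed FPKM (percent, vertical axis) against the rank of genes of status OK, without glu1, by the FPKM of their own group (log scale, horizontal axis), for fdl1-labelled tips in red and wild-type tips in dark blue, with a dotted line at rank 100. At that rank the curves stand at 15.2% in fdl1-labelled and 14.7% in wild-type tips, and they run together beyond about 1000 genes.

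One transcript above all members fell outside the rule. glu1 (GRMZM2G016890, chromosome 10, 34240659 to 34246077), the beta-glucosidase that releases benzoxazinoids from their glucosides, carried the status HIDATA, which Cuffdiff gives to a locus with too many fragments to process. It was listed at 0 in fdl1-labelled tips and at 5673 FPKM in wild-type tips, 1.81 times the highest member and 0.849% of the wild-type sum with it included. Because of that status the value of 0 is not a measured absence, and no ratio was formed.

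The highest member in both groups was grp1 (GRMZM2G080603, chromosome 1, 178503667 to 178505233), a glycine-rich protein by its RefSeq name, with 3218 FPKM in fdl1-labelled and 3135 FPKM in wild-type tips. Second in both groups was GRMZM2G011523 (chromosome 3), which the name table left without a descriptive name, with 2885 FPKM in fdl1-labelled and 2500 FPKM in wild-type tips. Its locus spans 191581 bp and matches 2 RefSeq entries, so its value may combine more than 1 gene. his2a1 (GRMZM2G305046, chromosome 9), which encodes a core histone of the H2A type, had 2335 FPKM in fdl1-labelled and 2173 FPKM in wild-type tips.

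Among the next ranks were genes that differed more between the groups. RAB15 (GRMZM2G165901, chromosome 5), a glycine-rich RNA-binding protein known to respond to abscisic acid, had 1544 FPKM in fdl1-labelled and 2022 FPKM in wild-type tips, and stood at rank 13 in fdl1-labelled against rank 4 in wild-type tips. DEF1 (GRMZM2G153488, chromosome 5, 187013899 to 187014947), a defensin by its name and thus one of the small secreted antimicrobial proteins, had 1091 FPKM in fdl1-labelled and 1816 FPKM in wild-type tips. It stood at rank 29 in fdl1-labelled and at rank 6 in wild-type tips. lox1 (GRMZM2G156861, chromosome 3, 168738873 to 168882335), a lipoxygenase that oxidizes polyunsaturated fatty acids, showed the opposite order, with 2361 FPKM in fdl1-labelled and 1429 FPKM in wild-type tips, and stood at rank 3 in fdl1-labelled and rank 10 in wild-type tips. Its locus is also over 100000 bp long, as for only 3 members.

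The rest of the first 10 had similar values in both groups. The alpha-tubulin locus TUA1/TUA2 (GRMZM2G153292) had 1659 FPKM in fdl1-labelled and 1500 FPKM in wild-type tips. It joins 2 closely related copies, between which reads could be split. sam2 (GRMZM2G154397), which makes the methyl donor S-adenosylmethionine, had 1785 FPKM in fdl1-labelled and 1482 FPKM in wild-type tips. ndpk1 (GRMZM2G178576), a nucleoside diphosphate kinase that balances the nucleotide pools, had 1441 FPKM in fdl1-labelled and 1473 FPKM in wild-type tips. The ndpk1 locus matches 3 RefSeq entries. GRMZM2G015295, to which no descriptive name could be given, had 2143 FPKM in fdl1-labelled and 1952 FPKM in wild-type tips.

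Ranks 11 to 25 held 4 more genes that differed by 1.5-fold or more. Of these 15 ranks, LTP3 and GRMZM2G039383 were lower and KWL1 and phytase1 were higher by at least 1.5-fold in the fdl1-labelled group. The other 11 lay within that range, between a log2 ratio of -0.23 for GRMZM2G088511 (1213 FPKM in fdl1-labelled, 1420 FPKM in wild-type tips) and 0.56 for BX5. GRMZM2G181371 had 1582 FPKM in fdl1-labelled and 1293 FPKM in wild-type tips, although its locus overlaps another gene. The unnamed genes GRMZM5G850966, GRMZM2G326111, GRMZM5G827266, GRMZM2G303374 and GRMZM2G066049 had log2 ratios of -0.19, -0.07, 0.05, -0.11 and 0.13, each with more than 1000 FPKM in both groups. RP-P0 (GRMZM2G066460), a protein of the ribosomal stalk, closed these ranks with 1032 FPKM in fdl1-labelled and 1128 FPKM in wild-type tips.

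**Figure D2:**
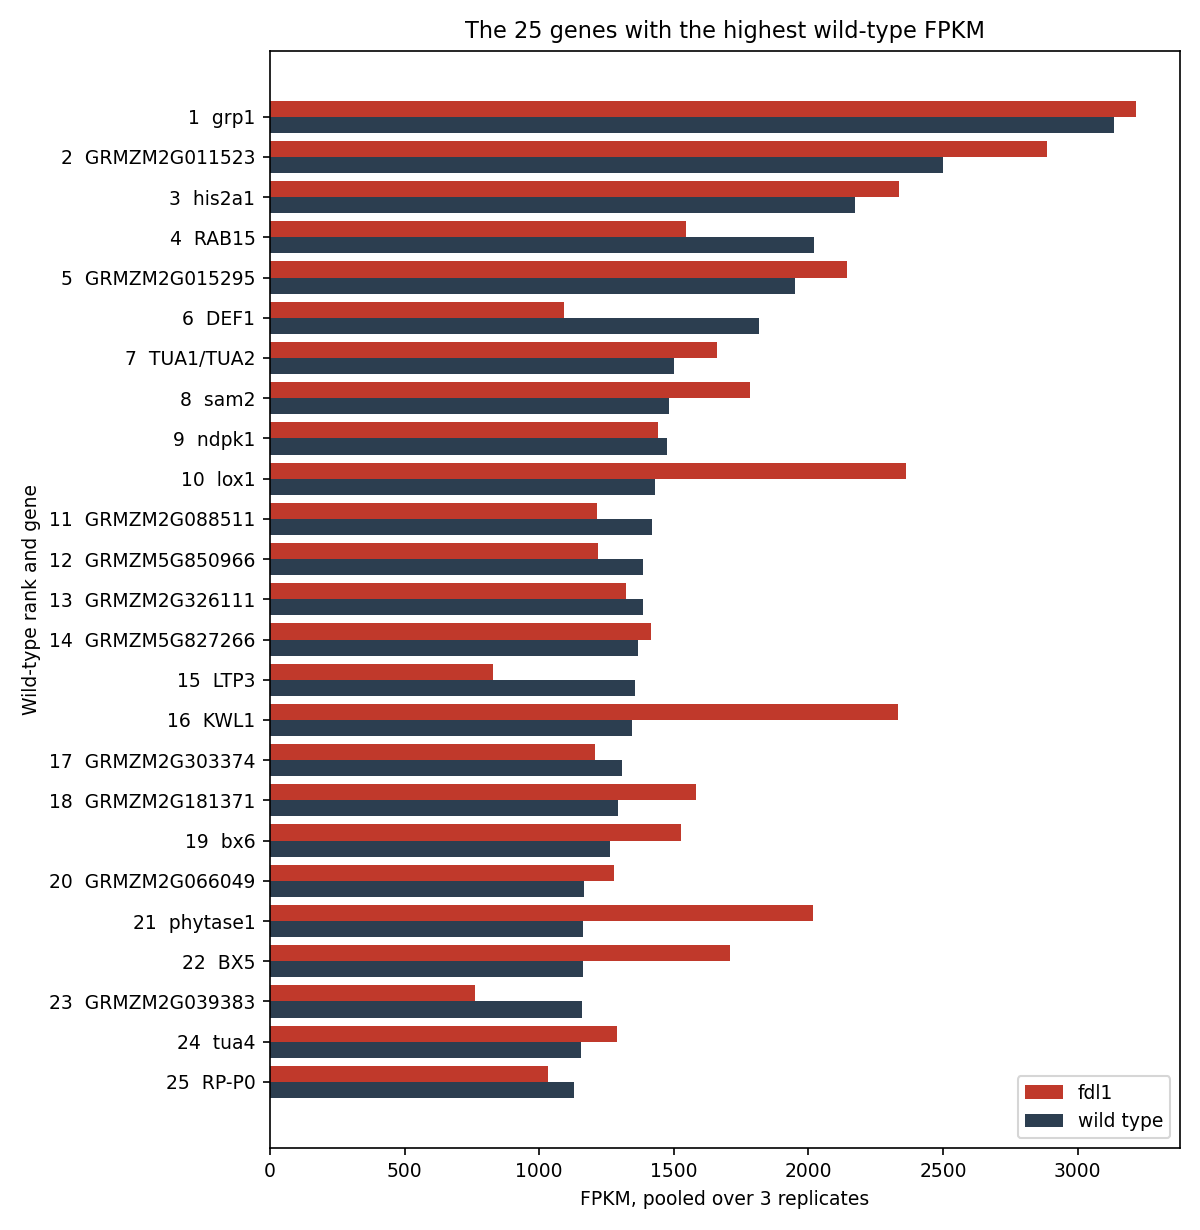
FPKM (horizontal axis, from 0) of the 25 genes with the highest wild-type FPKM, in the order of their wild-type rank, with the pooled value of the 3 fdl1-labelled replicates in red above that of the 3 wild-type replicates in dark blue. Bars carry no error because each is a single pooled value. The red bar is longer by at least 1.5-fold for lox1, KWL1 and phytase1, and shorter by at least 1.5-fold for DEF1, LTP3 and GRMZM2G039383.

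The order of the members was largely kept in the fdl1-labelled group. Across the 100 genes Spearman's rho between the FPKM values was 0.832, which describes genes of the same libraries that are not independent replicates. Of the first 10 genes in wild-type tips, 6 were among the first 10 in fdl1-labelled tips, and of the first 20, 14 were among the first 20. In all, 87 of the 100 were also among the 100 highest genes of fdl1-labelled tips, and 99 stood at rank 150 or better. The exception was MPI, a proteinase inhibitor gene, at rank 308 in fdl1-labelled and rank 99 in wild-type tips.

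Most of the 13 members that were not among the 100 highest in fdl1-labelled tips came from the lower edge, since 10 of them had a wild-type rank over 75. Among them were sus1 (GRMZM2G152908), a sucrose synthase that feeds carbon into growing cells, at 520.1 FPKM in fdl1-labelled and 633.4 FPKM in wild-type tips, and the histone gene his2b5 (GRMZM2G342515) at 529.6 FPKM in fdl1-labelled and 639.8 FPKM in wild-type tips. The 13 genes that took their places included bx1, bx2 and BX4, enzymes of the benzoxazinoid pathway. phytase2 (GRMZM2G043336) stood at rank 40 with 936.9 FPKM in fdl1-labelled tips and at rank 132 with 534.3 FPKM in wild-type tips. The plasma membrane aquaporin gene PIP2-6 (GRMZM2G047368), a water channel, stood at rank 44 with 888.1 FPKM in fdl1-labelled tips and at rank 149 with 500.1 FPKM in wild-type tips. A ubiquitin gene (MUB3, GRMZM2G409726) had 729.0 FPKM in fdl1-labelled and 545.4 FPKM in wild-type tips, and hsbp1 (GRMZM2G085924) had 617.9 FPKM in fdl1-labelled and 289.3 FPKM in wild-type tips.

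At the threshold of the choice, the values inside and outside lay close together. Ranks 98, 99 and 100 were rpl39 (GRMZM2G100467), MPI and eno2 (GRMZM2G048371), with 591.2, 316.6 and 643.7 FPKM in fdl1-labelled tips and 623.5, 623.5 and 620.3 FPKM in wild-type tips. The 3 genes just outside were ACP (GRMZM2G091715), GRMZM2G178341 and GRMZM2G385287, with 669.6, 521.4 and 554.7 FPKM in fdl1-labelled tips and 612.4, 610.7 and 607.2 FPKM in wild-type tips.

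The log2 ratio of fdl1-labelled over wild-type FPKM had a median of -0.09 over the 100 genes, with quartiles of -0.19 and 0.15 and a range of -0.98 to 1.29. It was above 0 for 37 and below 0 for 63 members, where 52.4% of the 23116 genes were above and 47.6% below. Most members therefore differed little, and for 80 of 100 the larger of the 2 values exceeded the smaller by less than 25%. That share was 59.2% over all genes of status OK above 0 in both groups, and it was not computed for genes of similar abundance. A level at least 1.5-fold higher in the fdl1-labelled group was found for 7 members, where the share over all 23116 genes was 13.0%. A level at least 1.5-fold lower was found for 5 members, where the share over all genes was 6.40%. Among the 1124 genes with a wild-type FPKM of at least 100, the shares were 5.60% for higher and 1.87% for lower. At 2-fold, 2 members were higher and 0 were lower, beside 5.64% and 1.87% of all genes. Since the wild-type FPKM chose the members, these counts are given beside the background and nothing was read from the difference.

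**Figure D3:**
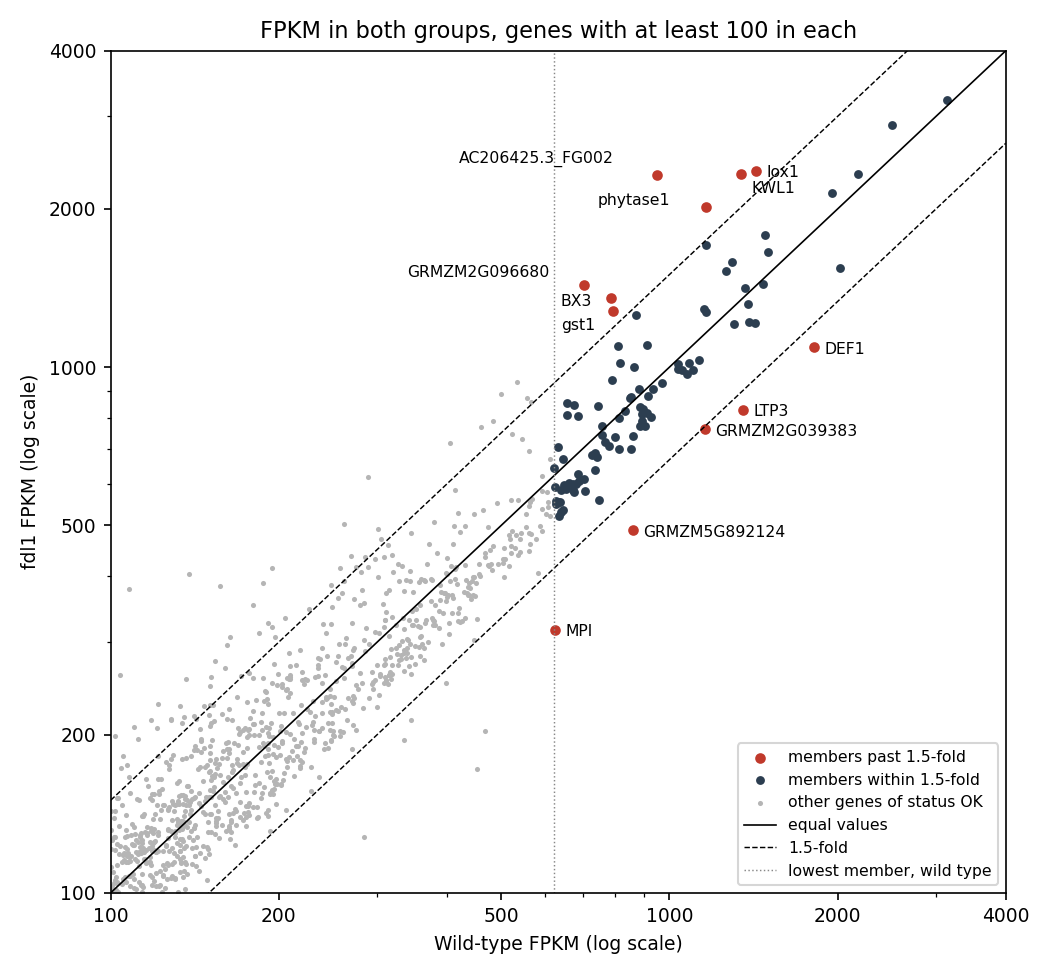
FPKM in fdl1-labelled tips (vertical axis) against FPKM in wild-type tips (horizontal axis), both on log scales, for genes with at least 100 FPKM in each group. Members past 1.5-fold are red and named, other members dark blue and other genes grey. The 7 named points above the upper dashed line include AC206425.3_FG002 at 2321 FPKM in fdl1-labelled and 949.5 FPKM in wild-type tips, and MPI is the farthest of the 5 below the lower line.

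Of the 7 higher members, 5 have a RefSeq name that tells their role. AC206425.3_FG002 (chromosome 3, 131958379 to 131959124), without a name in the table, had 2321 FPKM in fdl1-labelled and 949.5 FPKM in wild-type tips, 2.44-fold higher, and stood at rank 6 in fdl1-labelled against rank 33 in wild-type tips. GRMZM2G096680 (chromosome 6, 39431501 to 39432324), annotated in the study's supplement by its closest Arabidopsis homolog as a serine protease inhibitor of the potato inhibitor I type, had 1431 FPKM in fdl1-labelled and 703.4 FPKM in wild-type tips, 2.03-fold higher. These 2 were the only members past 2-fold. KWL1 (GRMZM2G073114, chromosome 5, 24994673 to 24995519) encodes a kiwellin, a secreted protein known in maize to inhibit an effector enzyme of the corn smut fungus. It had 2331 FPKM in fdl1-labelled and 1345 FPKM in wild-type tips, 1.73-fold higher.

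phytase1 (GRMZM2G140101, chromosome 3, 131730020 to 131731520) encodes an enzyme that frees phosphate from the phytate stored in seeds. It had 2017 FPKM in fdl1-labelled and 1164 FPKM in wild-type tips, 1.73-fold higher. phytase2 is a closely related copy on the same chromosome that was also higher, and reads of the pair could be split between them. BX3 (GRMZM2G167549, chromosome 4, 3003162 to 3005932), a cytochrome P450 of benzoxazinoid synthesis, had 1357 FPKM in fdl1-labelled and 785.7 FPKM in wild-type tips, 1.73-fold higher. lox1, described above, was 1.65-fold higher. gst1 (GRMZM2G116273, chromosome 8, 172671226 to 172674089), a glutathione S-transferase of detoxification, had 1278 FPKM in fdl1-labelled and 793.7 FPKM in wild-type tips, 1.61-fold higher.

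The members grouped in this way differed by 5927 FPKM in sum for the 7 higher genes, by -2327 FPKM for the 5 lower genes and by -81.1 FPKM for the 88 genes within 1.5-fold, each as fdl1-labelled minus wild-type tips. Among those 88 genes, 30 were slightly higher and 58 slightly lower, and their differences nearly cancelled. The signs of the sums for the higher and lower genes follow from how they were grouped.

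Of the 5 lower members, 3 have a RefSeq name that tells their role. MPI (GRMZM2G028393, chromosome 8, 133996633 to 133997534), the maize proteinase inhibitor known as wound-induced, had 316.6 FPKM in fdl1-labelled and 623.5 FPKM in wild-type tips, 1.97-fold lower. DEF1 was 1.66-fold lower, with the values given above, and its locus matches 2 RefSeq entries. LTP3 (GRMZM2G126397, chromosome 3, 184490364 to 184491451), a lipid transfer protein of a family that binds lipids outside the cell and is often expressed in the epidermis, had 828.3 FPKM in fdl1-labelled and 1357 FPKM in wild-type tips, 1.64-fold lower. The 3 epidermis markers that matched, of 6 symbols, were also lower in fdl1-labelled tips. ocl1 had 29.8 against 31.3 FPKM, nearly equal, and ocl4 had 5.86 against 9.48 FPKM. gl1 had 0.208 against 0.492 FPKM, a low level with the status NOTEST. The part of the epidermis in the value of LTP3 was not tested.

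The other lower members had no descriptive name. GRMZM5G892124 (chromosome 6, 8678515 to 8680555) had 489.2 FPKM in fdl1-labelled and 860.1 FPKM in wild-type tips, 1.76-fold lower, and its locus overlaps another gene. GRMZM2G039383 (chromosome 6, 86445433 to 86446121) had 761.9 FPKM in fdl1-labelled and 1158 FPKM in wild-type tips, 1.52-fold lower. Just inside the 1.5-fold limit stood BX5 with a log2 ratio of 0.56 and AC199526.5_FG002 with 0.53 on the higher side, and GRMZM2G132077 with -0.42 and RAB15 with -0.39 on the lower side.

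Along the wild-type ranking the median log2 ratio was 0.12 for ranks 1 to 10, -0.07 for ranks 11 to 50 and -0.12 for ranks 51 to 100. It was -0.18 for the next 100 genes, -0.11 for the genes from there to rank 500 and 0.03 for those from there to rank 1000. A median slightly below 0 was therefore not particular to the members. The distance between the quartiles was 0.334 for the 100 members and only 0.209 for the next 100 genes. It lay between 0.385 and 0.406 in the bins of ranks from there to rank 10000, and was 0.676 beyond rank 10000. The spread of the members was thus smaller than among weakly expressed genes, but larger than among the genes that follow them directly. The side from which the genes were chosen also moved the picture. The 100 genes with the highest FPKM in fdl1-labelled tips had a median log2 ratio of 0.01, with 15 higher and 3 lower by 1.5-fold, and the 100 highest by the mean of both groups had -0.03, with 13 higher and 4 lower.

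**Figure D4:**
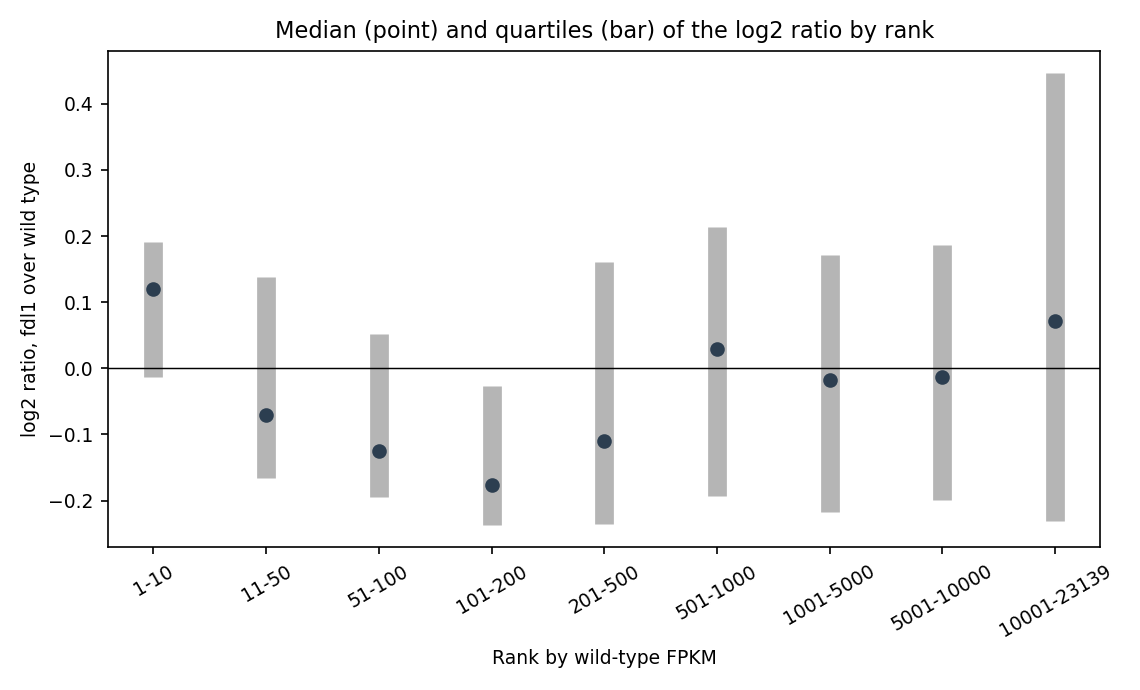
Median (point) and quartiles (grey bar) of the log2 ratio of fdl1-labelled over wild-type FPKM (vertical axis) in bins of genes ranked by wild-type FPKM (horizontal axis). The median was 0.12 in the first 10 ranks and -0.18 in the 100 ranks after the members, and the bar is widest beyond rank 10000.

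By name, 41 members could be placed in a role class. The counts of each class stand beside the same background over all genes, of which 13.0% were higher and 6.40% lower by at least 1.5-fold, 52.4% above and 47.6% below a ratio of 1. Ribosomal proteins were the largest class, and all 8 members were below a ratio of 1, by small amounts. Their log2 ratios lay between -0.21 and -0.08, with a sum of 5645 FPKM in fdl1-labelled and 6291 FPKM in wild-type tips. RP-P0 at -0.13, rpp3 (GRMZM2G077208) at -0.18, rps27 (GRMZM2G066222) at -0.19 and rps4 (GRMZM2G125271) at -0.09, subunit proteins of the ribosome, show how narrow the range was. Over all 36 genes of the class 35 were below 1, with a median of -0.18, and none lay past 1.5-fold. Of the 100 genes that follow the members in the wild-type ranking, 78 were also below 1, with the same median of -0.18. Those 100 genes include several of the ribosomal class, so they are not a separate comparison. The class extends to wild-type rank 14408, and 27 of its 28 genes that are no members were below 1. Over all genes, the median was 0.03 for the 500 genes up to rank 1000, with 229 below 1. For the 4000 genes after rank 1000 it was -0.02, with 2099 below 1.

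Translation factors and histones serve protein synthesis and chromatin in growing cells, and their members differed by small amounts in both directions. The elongation factor gene EF1A (GRMZM2G153541) had 972.6 FPKM in fdl1-labelled and 1077 FPKM in wild-type tips. The initiation factor genes eif5a (GRMZM2G113696) and tif5A (GRMZM2G144030) had log2 ratios of -0.03 and 0.05. Among the chromatin proteins, his2a1 had 0.10, the HMG protein gene MNB1B (GRMZM5G834758) had -0.09 and his2b5 had -0.27, within a class of 18 genes of which 14 were below 1, with a median of -0.19. Histone genes occur in many near-identical copies, and reads of one can be counted for another.

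Glycolytic enzymes, which break down sugars for energy, stood on the other side. All 5 members were above 1, with log2 ratios of 0.05 to 0.44 and a sum of 4647 FPKM in fdl1-labelled and 3784 FPKM in wild-type tips. The glyceraldehyde-3-phosphate dehydrogenase gene gpc2 (GRMZM2G180625) had 1099 FPKM in fdl1-labelled and 808.8 FPKM in wild-type tips, and its homolog GPC1 (GRMZM2G046804) had 1101 FPKM in fdl1-labelled and 912.0 FPKM in wild-type tips. Aldolase, ald1 (GRMZM2G057823), had 856.4 FPKM in fdl1-labelled and 655.0 FPKM in wild-type tips. Of the enolase genes, eno1 (GRMZM2G064302) had a log2 ratio of 0.26 and eno2 of 0.05. In the whole class of 18 glycolysis and fermentation genes 14 were above and 4 below 1, with a median of 0.27, and 3 were higher by at least 1.5-fold. The fructokinase frk2 (GRMZM2G051677), which supplies glycolysis with fructose phosphate, differed little, with 878.9 FPKM in fdl1-labelled and 854.1 FPKM in wild-type tips.

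Benzoxazinoid enzymes were higher in fdl1-labelled tips in every gene of the list. They convert an indole made by BX1 through the cytochromes P450 BX2 to BX5, and later steps include the dioxygenase BX6. The 3 members bx6, BX5 and BX3 summed to 4590 FPKM in fdl1-labelled and 3211 FPKM in wild-type tips, or 0.672% and 0.485% of the summed FPKM in the same order. bx6 (GRMZM6G617209, chromosome 4, 1252638 to 1254044) had 1526 FPKM in fdl1-labelled and 1264 FPKM in wild-type tips. BX5 (GRMZM2G063756, chromosome 4, 3112925 to 3115501) had 1707 FPKM in fdl1-labelled and 1161 FPKM in wild-type tips. All 9 measured genes of the pathway list were above 1, with a median of 0.60, and 5 were higher by at least 1.5-fold. The 3 that joined the 100 highest in fdl1-labelled tips were bx1 (GRMZM2G085381) with 716.3 FPKM in fdl1-labelled and 404.8 FPKM in wild-type tips, bx2 (GRMZM2G085661) with 872.8 and 555.5 FPKM, and BX4 (GRMZM2G172491) with 858.7 and 566.1 FPKM in the same order.

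Other defence genes did not share one direction. KWL1 was higher, and DEF1 and MPI were lower, among the 3 members of the class of defence proteins and protease inhibitors. GRMZM2G096680, described above as a protease inhibitor, has no name that could place it in the class and was 2.03-fold higher. In the whole class of 12 genes 6 were higher and 2 lower by at least 1.5-fold, so DEF1 and MPI were the 2 lower ones. Redox enzymes had 2 members, gst1 and POD1 (GRMZM2G137839), a peroxidase by its name, with 846.9 FPKM in fdl1-labelled and 675.4 FPKM in wild-type tips for POD1. Of the 45 genes in that class 40 were above 1 and 26 were higher by at least 1.5-fold, with a median of 0.70. Most of the 45 genes, and most of the 26 higher ones, are glutathione S-transferases by name, so the counts largely describe that family. In wild-type tips 17 of these 45 genes stood beyond rank 10000, where 19.4% of all genes were higher by at least 1.5-fold. lox1 was the most abundant of 10 lipoxygenase genes, 9 of which were above 1 and 5 of which were higher by at least 1.5-fold.

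Lipid transfer proteins were lower in all 3 genes of the class, which holds only genes found by name and may not cover the family. Besides LTP3, the member plt1 (GRMZM2G101958) had 813.7 FPKM in fdl1-labelled and 894.3 FPKM in wild-type tips, and plt2 (GRMZM2G010868), at rank 218 in wild type, had 250.5 FPKM in fdl1-labelled and 397.7 FPKM in wild-type tips. The remaining named members were close to equal. hsp70-4 (GRMZM2G340251), a chaperone, had 824.7 FPKM in fdl1-labelled and 831.4 FPKM in wild-type tips, and ANT1 (GRMZM5G837108), the mitochondrial exchanger of ADP and ATP, had 907.6 FPKM in fdl1-labelled and 882.3 FPKM in wild-type tips. prp2 (GRMZM2G102356), placed with the cell wall proteins by its symbol, had 595.8 FPKM in fdl1-labelled and 647.4 FPKM in wild-type tips. The symbol alone does not settle its role, since prp4 (GRMZM2G465226) is also named PR-1. tua4 (GRMZM2G152466), an alpha-tubulin, had 1288 FPKM in fdl1-labelled and 1154 FPKM in wild-type tips.

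**Figure D5:**
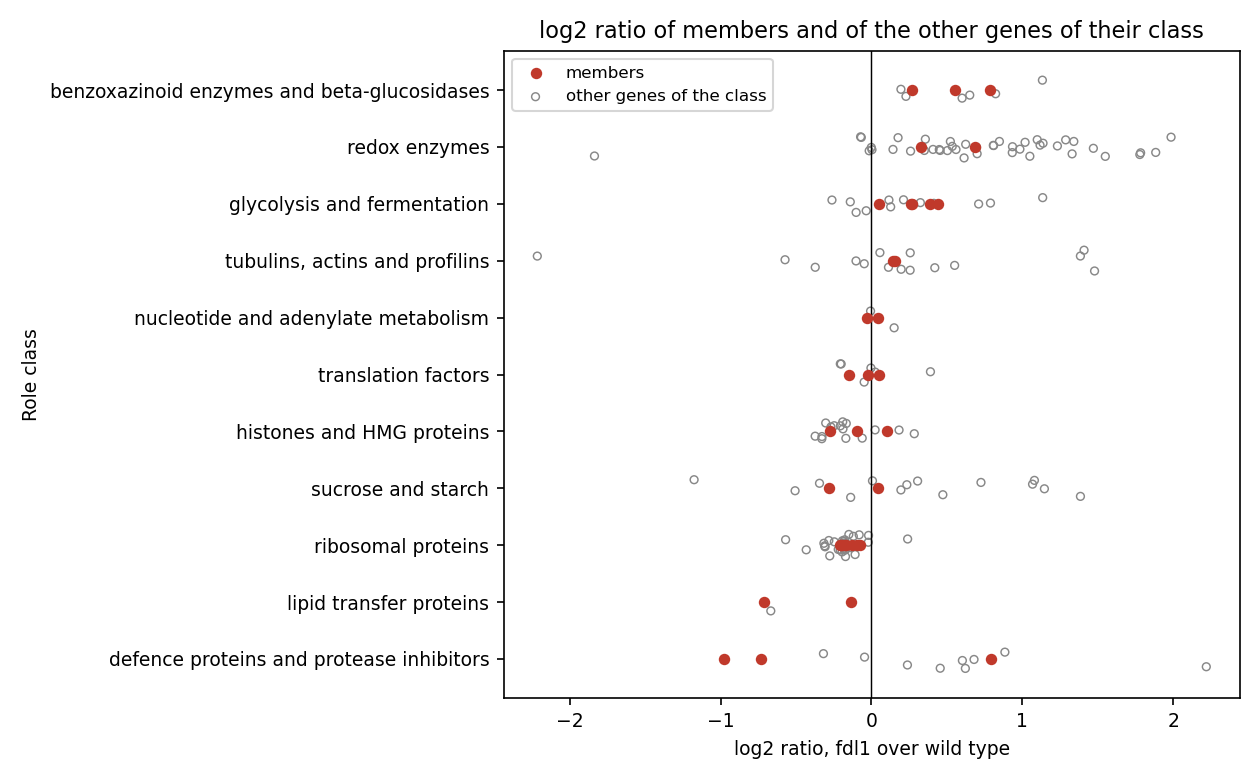
log2 ratio of fdl1-labelled over wild-type FPKM (horizontal axis) for members (filled red points) and the other genes of status OK (open grey points) in the role classes with at least 2 members (vertical axis). The 8 ribosomal members sit between -0.21 and -0.08, the 5 glycolytic members between 0.05 and 0.44, and the defence class holds members on both sides.

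No role class could be given to 59 members, because no name in the table matched the patterns of a class. RAB15 is one of them. Of these, 43 were below 1, with a median log2 ratio of -0.12 and a range of -0.81 to 1.29, and 2 were higher and 2 lower by at least 1.5-fold. An entry in the RefSeq table was found for 88 of the 100 members, against 67.7% of genes of status OK.

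By position, the members were spread over all 10 chromosomes, from 3 on chromosome 10 to 15 on chromosome 5. Chromosome 6 held 13 of them and 8.35% of the genes of status OK, and chromosome 2 held 8 of them and 11.8% of those genes. Their loci had a median span of 2474 bp, against 3634 bp over genes of status OK. Loci of 7 members overlapped another gene, against 6.46% of genes of status OK. Of the members named above, these were GPC1, GRMZM2G303374, GRMZM2G181371 and GRMZM5G892124. Neighbouring members within 250 kb of each other occurred in 3 pairs. phytase1 and AC206425.3_FG002 lay 226.9 kb apart on chromosome 3 and were both higher. BX3 and BX5 lay 107.0 kb apart on chromosome 4, where bx1, bx2 and BX4 also lie. GRMZM2G158568 and ANT1 lay 230.9 kb apart on chromosome 5, and both had a log2 ratio of 0.04.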

How the data were processed

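RNA-seq of 6 samples of maize coleoptile tips, 3 labelled fdl1 and 3 labelled wild type, was analyzed from the table that the authors deposited. The submitters' notes name Trimmomatic, TopHat2 2.1.1 and Cuffdiff, and the methods name stranded mRNA libraries and the B73v3 genome, which differs from the W22 plants. For each gene the authors deposited 1 FPKM per group, pooled over replicates, so that no spread or test was computed. Depth is unknown, so no counting error was given. The table's columns of the authors' own comparison, a log2 fold change, a test statistic, a p-value, a q-value and a call, were not used. Of 39283 genes, 23139 have the status OK, 16143 NOTEST and 1 HIDATA.

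Genes of status OK were ranked by wild-type FPKM and the first 100 kept. log2 ratios were computed from FPKM without a pseudocount, leaving out 23 genes at 0 in a group. Locus starts were raised by 1. Names come from RefSeq synonyms (assembly Zm-B73-REFERENCE-NAM-5.0, names only). Role classes were matched to these names, and ubiquitins, aquaporins, photosynthesis genes and metallothioneins had no member. The genes named were the 25 highest, the 10 highest and 10 lowest ratios, 3 on either side of the limit, glu1, FDL1 and up to 5 members per class, while genes that entered the 100 highest in the fdl1-labelled group, class genes that are no members and the other gene of a neighbouring pair were added after their values were seen. The members and lists were chosen with earlier results of these data known. One member that the rule names is not reported here. The code was tested on simulated data. Python 3.11.15, pandas 2.3.3, numpy 2.4.6 and matplotlib 3.10.9 were used. The alternatives were other numbers of members, other rankings, other fold limits, centring, shares, a pseudocount and filters on low values.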

Additional observations from a re-analysis of the deposited data

How the results depend on the processing

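No paired analysis was possible because the table holds 1 pooled value per group, and for the same reason no replicate could be left out. The share of the members in the summed FPKM of fdl1-labelled tips was 9.53% with 50 members, 21.8% with 200, 15.2% with members chosen by the fdl1-labelled FPKM and 14.4% without the most abundant gene. In wild-type tips it was 9.36%, 22.2%, 14.4% and 14.3% under these settings, and 14.6% with all listed genes in the sum. Of 50 members 38, and of 200 members 170, stayed among as many highest genes of fdl1-labelled tips. The median log2 ratio was 0.00699 with members chosen by the fdl1-labelled FPKM, -0.0286 by the mean of both groups, -0.11 centred on the median of genes with at least 1 FPKM in either group, -0.13 with shares of the summed FPKM and -0.0768 without overlapping loci. The members higher by the fold limit numbered 2 at 2-fold, 13 when 25% higher was enough, 15 when chosen by the fdl1-labelled FPKM and 13 by the mean of both, and the lower ones 0 at 2-fold and 3 when chosen by the fdl1-labelled FPKM. The 7 higher and 5 lower members numbered the same with centring and with shares. With shares, the log2 ratio changed sign for 4 members (GRMZM5G873455, grp1, ANT1 and frk2) and 67 members were below 1. Ribosomal genes below 1 numbered 35 and glycolytic members above 1 numbered 5 with both scalings. A pseudocount of 1 moved no log2 ratio of a named member by more than 0.00224. With at least 1 FPKM in both groups, 9.48% of genes were higher and 4.30% lower by 1.5-fold. Counting glu1 among the ranked genes, an alternative chosen after seeing the data, brought the share of the 100 highest genes to 15.2% in fdl1-labelled and 15.3% in wild-type tips. The listed 0 of glu1 in fdl1-labelled tips is not a measured absence, so nothing was read from this order. The spread between replicates limits every value and is unknown here.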

Other observations

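Some role classes with no or few members among the 100 most abundant genes had larger ratios than the members. Of 22 aquaporin genes, the water channels of cell membranes, 14 were higher and 1 was lower by at least 1.5-fold in the fdl1-labelled group, with a median log2 ratio of 0.87. Of 12 photosynthesis genes 8 were higher and 1 was lower, with a median of 1.08. Cell wall proteins, the class in which prp2 was placed and in which most genes have expansin names, had 10 higher and 1 lower of 17 genes. Their median was 0.88. The lower gene, prp4 (GRMZM2G465226), had 1.48 FPKM in fdl1-labelled and 2.85 FPKM in wild-type tips. It is also named PR-1, a name of pathogenesis-related proteins, so its place in this class is uncertain. Over all genes 13.0% were higher and 6.40% lower, and beyond wild-type rank 10000, where 12 of the aquaporin, 11 of the photosynthesis and 6 of the cell wall protein genes stood, 19.4% were higher and 9.04% lower. These values compare single pooled levels, and neither the spread between replicates nor a difference in tissue makeup or stage was tested.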
